A study of Homo sapiens with 24 samples.

Results

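The baseline H3K27Ac landscape of 10A cells comprised 15490 genomic regions that were enriched over input in cells carrying the control hairpin. All lines of the deposited comparison of shCTRL 10A H3K27Ac libraries with input were taken as members, with no further selection. They made up 15490 of 76271 regions in the 4 comparisons of H3K27Ac libraries with input, and of 171345 regions in all 6 tables of the series. The series holds 24 libraries in 8 groups of 3, which cross 2 human mammary epithelial lines with a knockdown and with H3K27Ac or input chromatin. MCF10A (10A) is an immortalized, non-tumorigenic mammary epithelial line, and MCFDCIS (DCIS) is a related line that models ductal carcinoma in situ. Both lines grew in medium with horse serum, EGF, hydrocortisone, insulin and cholera toxin. Cells were infected with lentivirus that expressed a hairpin against ANCO1 (shANCO1), the product of ANKRD11, or a control hairpin against GFP (shCTRL), so the baseline described here is that of infected cells. Input was crosslinked, sonicated chromatin that was not immunoprecipitated. The labels do not say whether the 3 libraries of a group came from separate cultures, and the tables hold 1 line per region for the whole group, so no spread between libraries can be given and the depth is unknown. Each FDR then rests on the spread between these libraries, which may be technical.

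H3K27Ac is acetylation of a lysine in the tail of histone H3. Histone acetyltransferases such as p300 and CBP place it on nucleosomes beside active promoters and enhancers, and histone deacetylases remove it. Active regulatory sites themselves are often free of nucleosomes, so the mark tends to lie on both sides of the bound transcription factors. In the basal layer of the mammary epithelium, p63 and factors of the AP-1 and TEAD families are known to act at enhancers of adhesion and growth genes. AP-1 is a dimer of JUN and FOS family proteins that binds a short palindrome-like motif.

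AP-1 motifs were dense in the sequence just outside distal regions and in short gaps between them, so sites in such gaps are shown first. The motif was searched as TGAGTCA or TGACTCA, which are the reverse complements of each other, so both strands were covered. Sequences are from the GRCh38 genome, and capitals mark the motif. The first set shows matches in the unmarked gap between a pair of neighbouring regions. These sites were chosen after the pattern was seen, as single matches outside exons in gaps between distal pairs. The pairs had a low FDR or had a listed gene as the nearest gene. The sites shown lay from 20507 bp (STAT4) to 378949 bp (EFNB2) from a TSS of the named gene.
ZMYND8 intron, chr20:47317404-47317460, gap of 400 bp: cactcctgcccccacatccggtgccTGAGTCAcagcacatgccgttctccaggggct
intergenic, nearest gene EFNB2, chr13:106156688-106156744, gap of 500 bp: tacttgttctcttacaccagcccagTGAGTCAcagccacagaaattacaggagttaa
intergenic, nearest gene STAT4, chr2:191172072-191172128, gap of 400 bp: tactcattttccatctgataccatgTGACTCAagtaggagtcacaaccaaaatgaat
intergenic, nearest gene ETS1, chr11:128210731-128210787, gap of 300 bp: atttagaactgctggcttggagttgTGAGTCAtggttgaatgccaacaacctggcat
ESR1 intron, chr6:151917038-151917094, gap of 300 bp: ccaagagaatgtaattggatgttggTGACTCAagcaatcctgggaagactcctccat
intergenic, nearest gene F3, chr1:94621604-94621660, gap of 300 bp: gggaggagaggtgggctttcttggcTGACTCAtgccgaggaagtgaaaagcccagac
intergenic, nearest gene CDK6, chr7:92904479-92904535, gap of 300 bp: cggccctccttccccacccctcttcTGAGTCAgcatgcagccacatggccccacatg

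The second set shows matches inside regions with very high fold or very low FDR. In the outer 300 bp inside distal regions the motif was no denser than 1 to 2 kb away. Deeper sequence of wide regions was not counted, so these are examples of position only. Of 53 regions singled out for their fold, FDR, width or response to shANCO1, which span 125900 bp, 16 held a match.
DNER intron, chr2:229408610-229408666, region of log2 fold 8.27: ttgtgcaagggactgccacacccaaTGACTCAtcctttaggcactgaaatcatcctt
intergenic, nearest gene POLR1F, chr7:19560853-19560909, region of log2 fold 8.24: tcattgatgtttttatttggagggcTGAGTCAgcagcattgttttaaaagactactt
intergenic, nearest gene PAPPA, chr9:115942055-115942111, region of log2 fold 8.23: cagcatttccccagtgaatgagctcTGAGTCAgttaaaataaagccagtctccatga
intergenic, nearest gene BTBD3, chr20:11455122-11455178, region of log2 fold 8.22: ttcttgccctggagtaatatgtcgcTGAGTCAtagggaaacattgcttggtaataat
intergenic, nearest gene TGFBI, chr5:136011525-136011581, region of log2 fold 6.65: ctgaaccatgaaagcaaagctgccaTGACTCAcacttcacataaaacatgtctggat
intergenic, nearest gene ABLIM3, chr5:149134496-149134552, region of log2 fold 6.05: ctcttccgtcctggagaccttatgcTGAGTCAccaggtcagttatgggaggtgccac

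The regions were narrow and strongly enriched. Together they covered 9.03 Mb, or 0.298% of chromosomes 1 to 22 and X. The median width was 400 bp, with a range from 200 to 5000 bp, and 14.4% of regions were at least 1000 bp wide. A region's fold is the deposited log2 fold over input of 1 representative window, not a mean over the region. The median log2 fold was 3.32, a 9.98-fold enrichment, with quartiles of 2.69 and 4.31 and a range from 1.74 to 8.36. Every region and every window in it was enriched, and the highest FDR was 3.92e-08. Only strongly enriched regions are thus listed, and a gene with no region is a gene with no listed region, not a gene shown to lack the mark.

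Regions near the start of protein-coding genes were fewer, and enriched by a smaller fold, than distal ones. A region was placed at a transcription start site (TSS) when it lay within 1 kb of one in GENCODE release 44. This held for 5818 regions, or 37.6% (95% Wilson interval 36.8 to 38.3, which covers counting error only), and the other 9672 were called distal. Distal regions lay a median of 40220 bp from the nearest TSS, and 17.3% of all regions lay over 100 kb away. Starts of long noncoding RNAs were not counted as TSS, so distal regions include some of these. The median log2 fold was 2.81 at TSS and 3.73 at distal regions, a difference of -0.93. By the gene codes in the deposited table, 56.4% of regions touched a promoter, 1.85% an exon, 23.8% an intron and 18.0% no gene. Medians by these codes were 2.97 for promoters, 3.82 for exons, 3.89 for introns and 3.68 for regions with no gene.

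**Figure D1:**
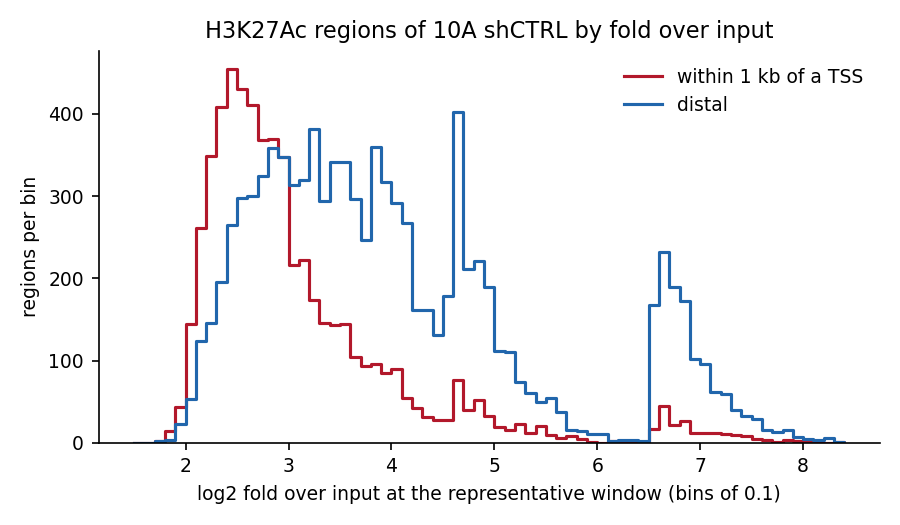
Number of regions per bin of 0.1 (y axis) against log2 fold over input at the representative window (x axis), for regions within 1 kb of a protein-coding TSS and for distal regions of shCTRL 10A cells. TSS regions peak at lower folds than distal ones, and between 6 and 6.5 only 25 regions are found before a second group begins.

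The fold followed base composition, and within classes of like composition TSS and distal regions hardly differed. Over 500 bp at the midpoint, the median GC content was 55.2% at TSS and 39.0% at distal regions. From the lowest to the highest quartile of GC content, the median log2 fold fell from 4.72 through 3.67 and 2.94 to 2.56. The medians of TSS and distal regions were 4.75 and 4.72 in the lowest quartile, 3.60 and 3.68 in the second, 2.93 and 2.96 in the third, and 2.56 and 2.53 in the highest. The difference of -0.93 over all regions thus became 0.025, -0.074, -0.028 and 0.035 within quartiles. The median also fell with GC content in the other 3 comparisons with input, for instance from 6.84 to 3.54 in shCTRL DCIS cells. A fold between genes or between kinds of region therefore has to be read beside the GC content, and what ties the fold to GC content was not tested.

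**Figure D2:**
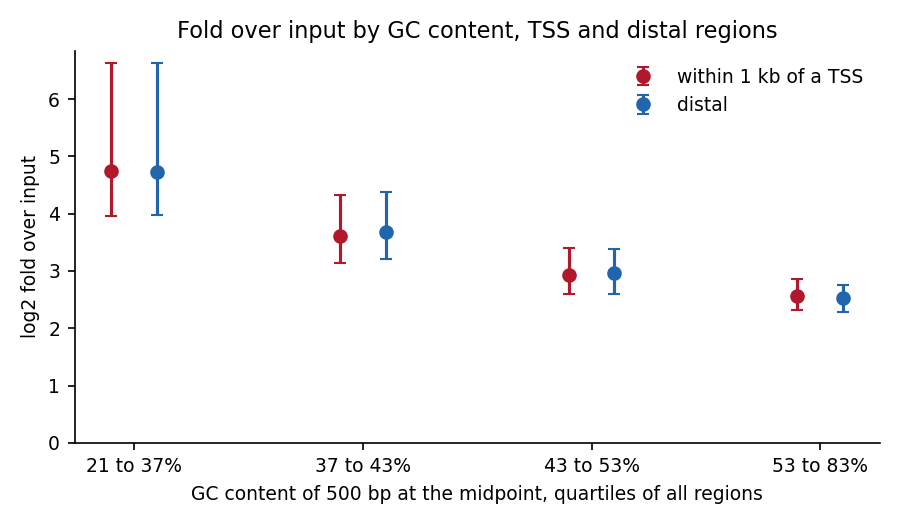
Median log2 fold over input (y axis, points) with the 25th and 75th percentiles of regions (bars), for TSS and distal regions in each quartile of GC content over 500 bp at the midpoint (x axis). Medians fall from 4.72 in the lowest quartile to 2.56 in the highest, with TSS and distal medians side by side in each.

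The highest folds formed a separate group with few distinct values. There were 160 regions with a log2 fold from 5.5 to 6, 25 from 6 to 6.5 and 984 from 6.5 to 7. Over 6, the 1466 regions took only 111 values to 3 decimals, whereas the 10591 regions from 2 to 4 took 1156. They comprised 198 of 5818 TSS regions and 1268 of 9672 distal regions, and 29.2% of the lowest quartile of GC content against 0.130% of the highest. The largest folds were thus mostly at AT-rich sites, and their order within the group is given as deposited. The part of low input counts in it was not tested, since the tables hold no counts.

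Around TSS the mark lay on both sides of the start, with a dip near the start itself. Over 19614 canonical TSS, with positions counted in bp and positive into the gene, 13.7% of genes were marked at position 302, 7.79% at -434 and 3.30% at the lowest point at -81. The ratio of the dip to the downstream maximum was 0.241, against 0.453 in shANCO1 10A, 0.453 in shCTRL DCIS and 0.512 in shANCO1 DCIS cells. Each table was normalized separately and listed regions at its own threshold, so the levels of these curves cannot be compared, and the 3 other ratios are given for description.

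**Figure D3:**
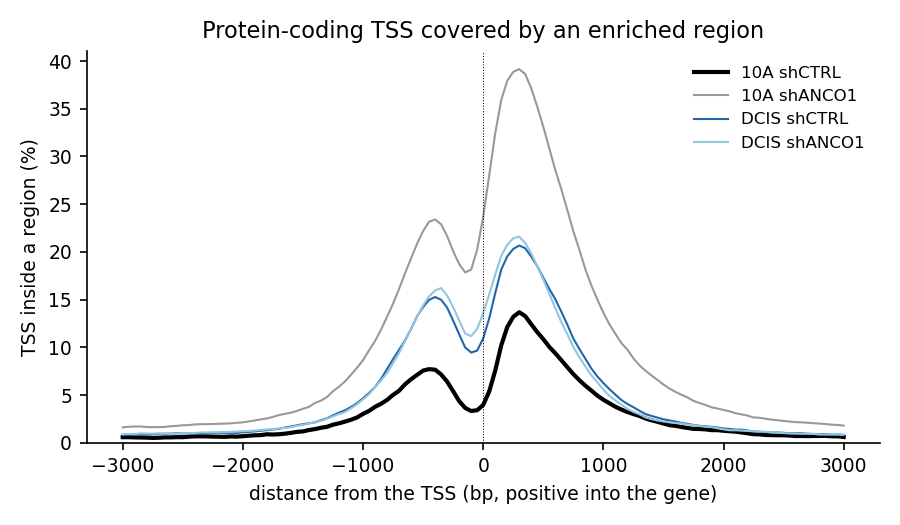
Share of 19614 canonical protein-coding TSS that lie inside an enriched region (y axis, percent) at each distance from the TSS (x axis, bp, positive into the gene), for the 4 comparisons with input. In shCTRL 10A cells the share is 7.79% upstream, 3.30% at the dip and 13.7% downstream.

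A region lay within 1 kb of a TSS for 5165 of 19962 protein-coding genes, or 25.9%. For 6999 genes a region covered part of the body or of the 5 kb before it, which was 35.1%. These shares are the background for the gene lists. Of the 5165 genes, 99.7% also had a marked TSS in shANCO1 10A cells and 87.2% in shCTRL DCIS cells, against 47.5% and 34.5% of all protein-coding genes. The 2 tables from 10A cells may share input libraries, and which inputs were used is not stated.

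Genes of the basal epithelial program and of hemidesmosomes, with the YAP and TEAD genes, had the highest shares of marked TSS among the lists. Hemidesmosomes are the complexes that anchor basal cells to the basement membrane. Housekeeping genes came close, with 10 of 16. Genes of the cell cycle and 9p21 had 9 of 16, in a list that includes CDKN2A and CDKN2B. In shCTRL DCIS cells 15 of the 18 basal genes had a marked TSS, so a high share was not particular to 10A cells. Of 18 basal genes, 12 had a marked TSS, and 15 had a region over the body, upstream or at the TSS. The median log2 fold at the 12 TSS was 3.61, and 11 of the 12 were above the median of TSS regions, but only 7 of 12 were above the median of TSS regions of the same GC quartile. DST, which encodes a linker of hemidesmosomes to keratin filaments, had a log2 fold of 5.47 and 17 regions over its body and upstream. COL17A1, a transmembrane collagen of hemidesmosomes, stood at 4.36. The laminin genes LAMA3 and LAMB3 stood at 3.94 and 3.01, and the integrin genes ITGB1 and ITGB4 at 3.56 and 3.16. KRT5, a basal keratin, was marked at 2.86 by a region of only 300 bp. TP63, which encodes the basal transcription factor p63, had 10 regions that covered 9800 bp, with a highest log2 fold of 7.59, yet none within 1 kb of an annotated TSS. ITGA6 and CDH3, which encodes P-cadherin, likewise had 3 and 7 regions away from their TSS. KRT14, KRT17 and TRIM29 had no region. KRT14, KRT17, KRT6A and other keratin genes have near-identical copies, so reads from them may be split or lost, and their values are uncertain.

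Of 17 luminal genes, the 3 with a marked TSS were KRT8 and KRT18, which share 1 region of log2 fold 2.53, and XBP1, a transcription factor of the secretory pathway, with a region of 800 bp. PGR, FOXA1, SPDEF, ELF5, KIT, KRT19, ERBB3, TFF1, TFF3, AGR2 and PRLR had no region. ESR1, the estrogen receptor gene, had no marked TSS but 7 regions that covered 6300 bp in its body or upstream, with a highest log2 fold of 7.68. GATA3 had 1 region of 200 bp. The shares of 66.7% and 17.6% lie on either side of the 25.9% over all genes, and with lists of this size no test of the difference was made.

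Among genes of epithelial junctions and their regulators, 6 of 18 had a marked TSS. DSG3, which encodes a desmosomal cadherin, had a log2 fold of 5.38 and KLF5, a transcription factor of basal and progenitor cells, 4.54 over a region of 2300 bp. ESRP2, a splicing regulator, stood at 3.31, GRHL2, a transcription factor for junction genes, at 2.89, PKP3 at 2.56, and DSP, which encodes desmoplakin, at 1.99. CDH1, the E-cadherin gene, EPCAM and ESRP1 had regions but none at the TSS. Of 16 mesenchymal genes, 3 had a marked TSS. SNAI2, a transcription factor of basal and migrating cells, stood at 3.38, ZEB2 at 2.56 and ACTA2, the smooth muscle actin gene, at 2.48. VIM, the vimentin gene that 10A cells in culture are known to express, had no region in this table. Its TSS was marked in shANCO1 10A cells.

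Genes of the YAP and TEAD pathway, through which cell contact and stiffness regulate growth, had a marked TSS in 11 of 16 cases. TEAD1, the DNA-binding partner of YAP, had the highest log2 fold of the list, 5.07. VGLL4, which competes with YAP for TEAD, stood at 4.33 and AJUBA, an inhibitor of the LATS kinases, at 4.09 over a region of 2900 bp. YAP1 itself stood at 2.83 and WWTR1, which encodes TAZ, at 2.32. The target genes CCN1 and AMOTL2 were marked at 3.02 and 2.87, AXL at 2.57 and LATS2 at 2.42, whereas CCN2 had 1 region outside the 1 kb and ANKRD1 none. Of the 11, 7 were above the median of TSS regions of the same GC quartile. Of 12 genes for AP-1 subunits and relatives, 5 had a marked TSS. They were JUND at 3.30, FOSL1 at 3.15, FOSL2 at 2.94, JUNB at 2.46 and FOS at 2.40, while JUN, FOSB and ATF3 had no region.

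Growth factor and cytokine genes included some of the widest and strongest marks at single genes. AREG, which encodes the EGF receptor ligand amphiregulin, lay in a region of 4000 bp with a log2 fold of 5.84. Its neighbour EPGN, for the ligand epigen, stood at 4.56, EGFR at 3.15 and TGFA at 2.48, which made 4 of 12 genes of EGF ligands and ERBB receptors. Of these 4, 3 were above the median of TSS regions, but only 2 were above the median of TSS regions of the same GC quartile. EGFR had 11 regions over its body and upstream that covered 7500 bp. EGF, HBEGF, BTC, ERBB2, ERBB3 and ERBB4 had none. Among inflammatory secreted factors 7 of 18 had a marked TSS, and 6 of the 7 were above the median of TSS regions of the same GC quartile. The cytokine gene IL1A stood at 4.95 over 1600 bp and F3, the tissue factor gene, at 4.77 over 1800 bp. PTGS2, IL1B, IL6, CXCL2 and CXCL3 stood between 2.72 and 3.08. CXCL2 and CXCL3 are near-identical copies with CXCL1, and their values are uncertain. CCL20, a chemokine gene, had a log2 fold of 8.35 in a region of 3200 bp that began 1059 bp from its TSS, so it was counted as distal.

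Of 16 housekeeping genes, 10 had a marked TSS. The ribosomal protein gene RPL13A stood at 4.04 over 2000 bp, while GAPDH stood at 2.49. PGK1, B2M, HPRT1 and SDHA, which every cell uses, had no region, which shows how much the listing leaves out. Of 16 genes of the cell cycle and 9p21, 9 had a marked TSS, with log2 folds from 2.33 to 3.21. CDKN2A and CDKN2B of this list lie in a 9p21 stretch with no region in any comparison, as described below. CDK6, a kinase of the G1 phase, had 11 regions over its body and upstream but none at its TSS. Among ANKRD11 and transcriptional coregulators, 6 of 14 had a marked TSS. ANKRD12, the paralog of ANKRD11, stood at 3.95, HDAC1 at 3.74, NCOA3, which encodes the coactivator AIB1, at 3.73, and the acetyltransferase gene EP300 at 2.44. ANKRD11 itself had 2 regions in its body or upstream, with a highest log2 fold of 2.72, and none at a TSS.

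Marked TSS were also counted for markers of other cell types. None of 12 immune, 8 endothelial, 12 adipocyte, liver, muscle and erythroid and 12 neural genes had a marked TSS, and of these 44 genes PECAM1, CIDEC and SNAP25 had regions over the body or upstream. The defining basal marker KRT5 was marked, KRT14 was not, and the hormone receptor genes ESR1 and PGR had no marked TSS.

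**Figure D4:**
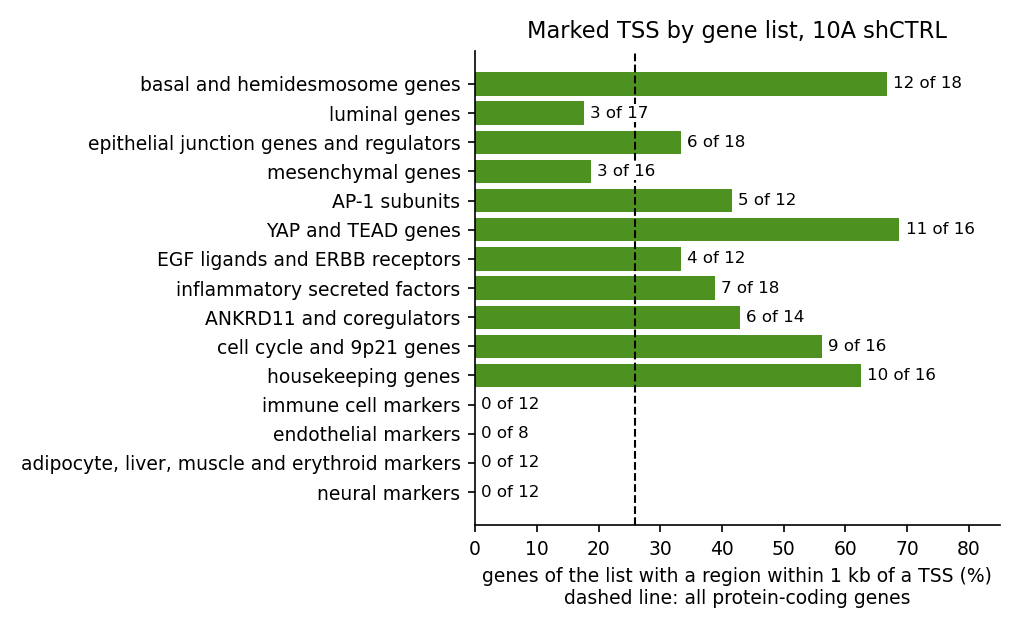
Share of genes with a region within 1 kb of a TSS (x axis, percent) for each gene list (bars, with counts), and the share over all protein-coding genes (dashed line, 25.9%). YAP and TEAD genes, with 11 of 16, and basal genes, with 12 of 18, reach the highest shares, and the 4 lists of other cell types stand at 0.

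The largest folds at a TSS were at ROS1, a receptor tyrosine kinase gene, with 8.36 over a region of 3600 bp, IL20RB, which encodes a subunit of receptors for IL-20 family cytokines, with 8.04, and ZC3H12C with 8.01. PLAC8, MYL12A, PHLDA1, MKKS, IL18, PTCHD4 and KYNU followed with 7.99 to 7.73. Among distal regions, CCL20 was followed by an intron of DNER with 8.27 and by intergenic regions whose nearest genes were POLR1F with 8.24, PAPPA with 8.23 and BTBD3 with 8.22. The nearest gene is a label of position and not a target. The lowest FDR, 1.64e-28, belonged to a region of 4800 bp over the noncoding gene CCAT1 on chromosome 8, and 5 of the 10 lowest were on this part of the chromosome. Some of these 5 overlapped or lay next to each other, so they are not 5 separate sites. The rest of the 10 were near ABLIM3 and TGFBI, in introns of TENM2 and ZMYND8, and at the TSS of RPL13A. The log2 folds of the 10 regions ran from 3.78 to 6.65, so the best supported regions were not those of largest fold.

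Marks were clustered along the genome. When regions up to 10 kb apart were joined, 9453 domains resulted, of which 63.0% held a single region. The 298 domains with at least 5 regions held 12.1% of regions and 15.9% of marked bases. The widest marks lay over noncoding genes, with 21800 bp marked in 12 regions at CCAT1, 21500 bp in 17 regions at MIRLET7BHG, the host gene of let-7 microRNAs, 20900 bp in 16 regions at LINC01698 and 17200 bp in 16 regions at MIR100HG. Protein-coding genes in the top domains were HOXA3, HOXA4 and HOXA5 with 13600 bp, TGFBI with 13100 bp, TFAP2A, which encodes the factor AP-2 alpha, with 13000 bp, and TFPI with 12200 bp. Over gene bodies and 5 kb upstream, RAD51B held the most marked bases, 22900 bp in 40 regions, with none at its TSS. ZMYND8 held 21400 bp in 17 regions, VMP1 18355 bp in 11, and PDGFC 17900 bp in 14. These sums were not scaled to gene length, and copy number was not measured.

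Pairs of regions with a short gap were common, and at distal pairs the gap was rich in the AP-1 motif. Apart from 12 cases where neighbours overlapped, gaps between neighbours were at least 300 bp. The distance over which windows were merged is not given, and its part in this smallest gap was not tested. A gap of up to 1000 bp separated 25.6% of neighbours. Among 2437 pairs of distal regions at this distance, with a median gap of 400 bp, 38.7% (95% Wilson interval 36.8 to 40.7) held an AP-1 match in the gap. Of the same pairs, 9.07% held one in an equal length of sequence that began 300 bp outside the pair. The density was 975 matches per Mb in the gaps and 211 in the outer sequence. This outer sequence skipped the 300 bp next to each pair. Distal regions with no other region within 4 kb had 837 matches per Mb from 100 to 300 bp outside. A high density was thus not particular to gaps. Among 1177 pairs of TSS regions, the shares with a match in the gap and in the outer sequence were 8.24% and 7.99%. Of all distal regions, 45.3% belonged to such a pair. The regions of pairs with and without a match had a median log2 fold of 3.69 and 3.81.

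The density was also counted outward from the edges of each distal region, so a gap between neighbours was counted from both sides. Matches numbered 196 per Mb inside distal regions, counted up to 300 bp from the edge. Outside the edges they numbered 882 per Mb from 100 to 200 bp and 199 per Mb from 1 to 2 kb away. The density from 100 to 300 bp outside was 4.13 times that farther out. For the 3936 distal regions with no other region within 4 kb, an alternative chosen after seeing the data, it was 837 per Mb against 176 per Mb farther out, a ratio of 4.76. Around distal regions of shCTRL DCIS cells this ratio was 2.93, and around TSS regions of shCTRL 10A cells it was 1.31. TSS regions instead had ratios of 8.79 for the ETS motif CCGGAAG and 5.87 for the SP and KLF motif GGGCGG, motifs that are common in GC-rich promoters. Around distal regions the ratios were 1.42 for the TEAD motif GGAATG, 1.47 for the RUNX motif TGTGGTTT, 1.82 for the ETS motif and 1.40 for the SP and KLF motif. The CRE motif TGACGTCA had ratios of 3.54 at distal and 10.1 at TSS regions on 70 and 121 matches. Each motif was searched on both strands with no mismatch. Without matches in a repeated context, 929 per Mb remained in the gaps and 188 in the outer sequence. A match is a string of letters and does not show that a factor was bound.

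**Figure D5:**
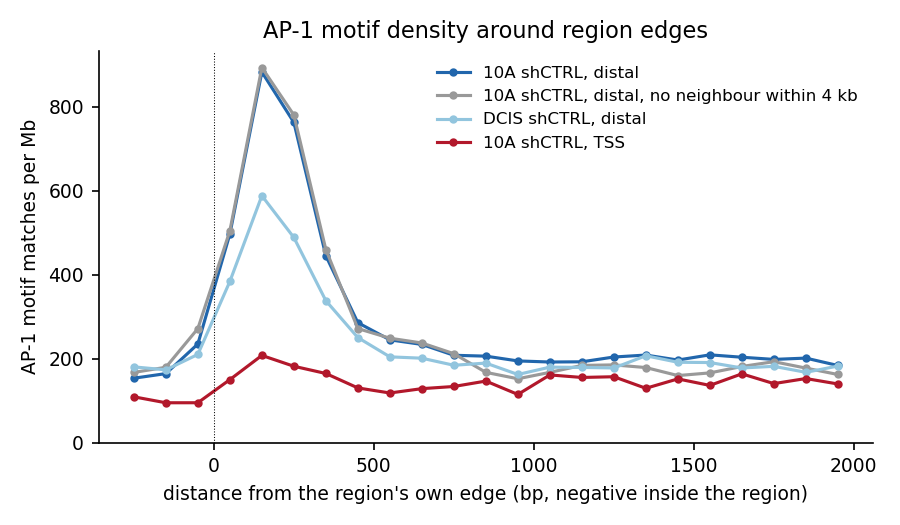
AP-1 motif matches per Mb (y axis) in bins of 100 bp by distance from each region's own edge (x axis, negative inside the region), for distal and TSS regions of shCTRL 10A cells, distal 10A regions with no neighbour within 4 kb and distal regions of shCTRL DCIS cells. Distal 10A regions reach 882 per Mb from 100 to 200 bp outside the edge and about 200 per Mb from 1 to 2 kb, while TSS regions stay at or below 208.

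At the midpoints of regions the motif was less common than over all regions tested between shANCO1 and shCTRL. Over 500 bp, 13.3% of distal regions held a match, against 5.23% of TSS regions and 10.3% of all members. Of 35116 RefSeq promoters 4.95% held one, but over 300 bp. Shares rise with the length searched, so this one cannot be set against the others. Over the 50284 regions of the shANCO1 against shCTRL comparison in 10A cells the share was 18.3%, or 22.2% at distal ones. The windows were centred on the marked regions and not on the gaps between them. The SP and KLF motif was found at 2907 of 5818 TSS and 612 of 9672 distal midpoints, and the ETS motif at 11.2% and 1.65%.

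Fewer than 50% of the regions were also listed in shCTRL DCIS cells, and the overlap was much higher at TSS. At least 1 base was shared by 45.5% of regions (95% Wilson interval 44.7 to 46.2), by 75.4% of those at TSS and by 27.4% of distal ones. The share was 20.2%, 33.4%, 54.6% and 74.7% from the lowest to the highest quartile of GC content. Within each quartile it was higher at TSS than at distal regions, with 48.6% against 16.7% in the lowest and 78.6% against 57.2% in the highest. By quartile of fold it went the other way, from 66.4% at the smallest folds to 25.8% at the largest. With shANCO1 10A cells the overlap was 94.3%. A region was found in all 4 comparisons with input in 39.8% of cases, and 4.53% were found in none of the other 3. Of the 216 listed genes, 63 had a marked TSS in both tables, 13 in shCTRL 10A alone and 27 in shCTRL DCIS alone. The 13 were COL17A1, DSP, ZEB2, SNAI2, TEAD3, VGLL3, CCN1, LATS2, IL1A, IL1B, IL6, F3 and CDKN1A, and the 27 included KRT17, TRIM29, ITGA6, CDH3, CDH1, EPCAM, ERBB3, GATA3 and JUN. The 2 tables were normalized separately, each has its own threshold, and the lines were not compared in 1 fit, so a region in a single table is not shown to differ between the lines.

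All 15490 regions were covered by regions tested for shANCO1 against shCTRL in 10A cells. This comparison shares the shCTRL libraries with the members. A region higher in shANCO1 cells at an FDR under 0.05 lay over 10222 members, or 66.0%, and such regions made up 43.6% of all tested. The members lay over 11666 distinct tested regions, so some tested regions count for more than 1 member. Shares of members count such a region more than once, whereas shares of all tested regions count it once. Per member, the median log2 change of the tested region was 0.83, against 0.76 over all tested regions. The medians differed little, and 88 members lay over a called region that rose by at least 1 log2 unit more than the median of all tested regions. The share of all tested regions that pass this stricter call was not computed, so the 88 cannot be set against a background. The smallest FDR among the rises, 4.27e-11, was at an intergenic region 459395 bp from RGMB, with a log2 change of 2.58. A region lower in shANCO1 cells lay over 57 members, or 0.368%, of which 52 were distal, and 0.225% of all tested regions were lower. These included an intron of FBLN1, which encodes the matrix protein fibulin-1, with a log2 change of -1.18 at an FDR of 0.000827, and intergenic regions nearest to PNPT1 with -1.19, to GABRP with -1.16 and to IKZF2 with -1.36. At an FDR under 0.05, 72.3% of all TSS members lay over a region higher in shANCO1 cells. Of the 76 listed genes with a marked TSS, 67 were higher and 0 lower. Each gene was represented by its TSS region of lowest FDR, whereas the 72.3% counts every TSS member. The share over all 5165 genes with a marked TSS was not computed, so these counts have no like background. By list, the higher genes were 12 of 12 basal, 3 of 3 luminal, 4 of 6 junction and 3 of 3 mesenchymal genes. KRT8 and KRT18, which share 1 region, count as separate luminal genes. Higher too were 4 of 5 AP-1, 10 of 11 YAP and TEAD, 4 of 4 EGF ligand and receptor and 7 of 7 inflammatory genes. The other lists had 5 of 6 coregulator, 6 of 9 cell cycle or 9p21 and 9 of 10 housekeeping genes. At AREG the log2 change was 1.12 at an FDR of 0.0004, at IL1A 1.41 at 3.91e-07, at LAMB3 1.34 at 5.31e-08 and at TEAD1 1.07 at 0.00087. At DSG3 it was -0.81 at an FDR of 0.225, and at CDK4 0.52 at 0.155, which did not pass. These FDR values are those of the deposited csaw comparison.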

How the data were processed

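Per the study's methods, BWA and Rsubread placed the reads on GRCh38, samtools took out duplicates, csaw tested windows and ChIPpeakAnno assigned genes. The deposited tables hold log2 fold, p-value and FDR per region over the 3 libraries of a group, and numbers of tested windows and gene codes per region as other columns. The fold, p-value and FDR columns are the authors' own comparisons. They are the only measurements in the files and are described here as deposited. Which input libraries were used, the normalization, the window filter, the merging distance and the prior count are not given in the sources used here.

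From these tables, region counts, widths, overlaps of at least 1 base, distances to TSS of GENCODE release 44 (basic protein-coding transcripts), joined domains, GC content and motif matches in the GRCh38 genome were computed with Python 3.11.15, pandas 2.3.3, scipy 1.17.1 and pysam 0.24.0. Intervals are 95% Wilson intervals. The DCIS shCTRL table listed 15482 regions, of which the 2 with an FDR over 0.05 were left out. No test was run over regions or genes, which are not replicates. A context was called repeated when at least 10 of its 12-base words within 50 bp of the match occurred over 1000 times on chromosome 1. Overlap, TSS distance and joining functions were tested on simulated data, and the motif counts were not. Members, gene lists and comparisons were chosen with earlier results of these data known. Genes named are list members (at the region of lowest FDR within 1 kb of a TSS), the 10 regions of largest fold with at least 5 windows at TSS and the 10 at distal sites, the 10 of lowest FDR, the 10 genes with most marked bases, the 10 domains with most marked bases, and the 10 lower and 5 higher regions of lowest FDR in shANCO1 cells. The widest regions, the GC quartiles and the sites in gaps were added after the data were seen. Alternatives were other thresholds, TSS distances, annotations, overlaps, joining distances and motif windows. A few members of the gene lists are counted but not reported here by name.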

Additional observations from a re-analysis of the deposited data

How the results depend on the processing

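The deposited list is already strict, so an FDR under 0.01 or a log2 fold of at least 1 left all 15490 regions, whereas an FDR under 1e-10 left 6922 and a minimum of 5 windows left 4860. The share of regions at a TSS was 41.9% within 2.5 kb, 56.4% by the deposited promoter code and 36.7% with at least 5 windows. Genes with a marked TSS fell to 2692 at an FDR under 1e-10. The difference of TSS minus distal medians was -0.87 within 2.5 kb, -0.98 with at least 5 windows and -0.84 by the promoter code, but 0.025, -0.074, -0.028 and 0.035 in the GC quartiles, where it changed sign in the lowest and the highest. The overlap with shCTRL DCIS regions was 23.9% at a reciprocal 50%, 55.7% at an FDR under 1e-10 in the 10A table, and 20.2%, 33.4%, 54.6% and 74.7% in the GC quartiles. Members over a region higher in shANCO1 cells numbered 4112 at an absolute log2 change of at least 1 and 88 at 1 log2 unit from the median, and those over a lower region 100.0 at an FDR under 0.1. Shares over all tested regions were not computed for these alternative counts. Without TSS regions, 5806 domains remained. AP-1 matches were found at 4.81% of distal midpoints in 200 bp, 39.4% in 1000 bp and 14.8% at an FDR under 1e-10. At distal regions with no other region within 4 kb the AP-1 density ratio was 4.76. Of the other 10 settings, the furthest from its reported value was an FDR under 0.01 in the direct comparison, which left 6846 of 10222 members over a higher region. No paired analysis was possible because the tables hold no value per library, and for the same reason no replicate could be left out. Depth is unknown, and weakly marked sites are not listed.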

Other observations

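The 9p21 locus, known to be deleted in 10A cells, was empty in the deposited data. No region of any of the 6 tables, the direct comparisons included, lay in the 313.8 kb from 21855801 to 22169600 on chromosome 9 (GRCh38), which holds CDKN2A, CDKN2B and the 3′ part of MTAP. Over the 2 Mb from 21000000 to 23000000, the comparisons with input were sparse, with 6 regions in shCTRL 10A and 3 in shCTRL DCIS cells. An empty stretch in them is thus weak evidence. The direct comparisons listed 26 regions in 10A and 21 in DCIS cells over the same 2 Mb. Copy number was not measured.

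Regions were unevenly spread over chromosomes. Chromosome 20 held 9.78 regions per Mb, the highest value, and chromosome X 1.15, the lowest. On chromosome 19 72.1% of regions were at a TSS, against 32.9% on chromosome 20. The medians of log2 fold ran from 2.53 on chromosome 19 to 3.92 on chromosome 4.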
